A study of Danio rerio with 4 samples.

Results

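Transcripts of 6 zebrafish genes that build the division apparatus of the cell, anln, ect2, racgap1, prc1a, prc1b and nusap1, were followed in adult hearts after vitamin D treatment. They were chosen by name for their place in the contractile ring or the central spindle, and all 6 were found among the 14962 genes of the authors' deposited table for the heart. Per the labels, adult fish of the Ekkwill strain received vehicle or alfacalcidol by injection once a day over 3 days, and hearts were collected 24 hours after the final injection. Alfacalcidol is a synthetic vitamin D analog that the liver hydroxylates to the active hormone. The labels name no mutation, transgene or injury, no dose and no age beyond adult. The series holds that table, whose 1 comparison gives fold changes, mean levels and p-values without values per library, and read counts of 2 libraries labelled vehicle and 2 labelled alfacalcidol. Nothing in the labels says whether libraries came from separate animals or pools, so p-values measure only the spread between libraries.

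Cytokinesis splits a cell after its chromosomes have separated. Antiparallel microtubules are bundled between the chromosome sets into the central spindle, which positions an activator of the GTPase RhoA at the cell equator, and RhoA then drives assembly of an actin and myosin ring that closes the furrow. Cardiomyocytes can replicate DNA and still omit this step, becoming binucleate or polyploid. Adult zebrafish cardiomyocytes are mostly mononuclear and diploid and divide during regeneration. In zebrafish, blocking Ect2 function in cardiomyocytes has been used to make polyploid hearts.

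The table and the count libraries did not describe the same kind of RNA. The 10 cardiomyocyte markers, led by vmhcl, myl7 and cmlc1, which encode cardiac myosin chains, summed to 97970 CPM (read counts scaled to a common library total) in the authors' deposited table. In the 4 count libraries the same 10 markers summed to 2632 to 2796 CPM, while 8 skeletal muscle genes summed to 32850 to 38730 CPM and 3 epidermal keratin genes to 18290 to 26880 CPM. In the authors' deposited table those last sums were 2923 and 105 CPM. The heart label was thus borne out by the markers in the table and not in the count libraries, so both sources are described apart. The table does not name the numerator of its fold change. It was read as alfacalcidol over vehicle because cyp24a1, a known target of the vitamin D receptor that degrades the hormone, is listed at a log2 fold change of 1.53 by the authors' deposited table, and every direction below rests on that reading.

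All 6 cytokinesis genes were higher with alfacalcidol in the authors' deposited table, between 4.76-fold for racgap1 and 20.6-fold for prc1a, and each passed an adjusted p of 0.05 (edgeR, Benjamini-Hochberg over all genes). Over all genes of the authors' deposited table, 10.9% were called higher and 9.22% lower, and 1.84% had a fold change as large as that of racgap1, the smallest of the 6. The median log2 fold change of the 6 was 3.68 in the authors' deposited table, against 0.0086 for all 14962 genes. The 6 also passed at an adjusted p of 0.01, with a 2-fold minimum and over genes at 1 CPM or more, rules under which 13.7%, 8.43% and 19.8% of the genes tested were called in the authors' deposited table. The names were picked with earlier results of these data known, so the count of 6 is a description. In heart RNA pooled over cells, more cells that carry a transcript and more RNA per cell cannot be told apart, and the table does not say which cell type the transcripts came from.

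**Figure D1:**
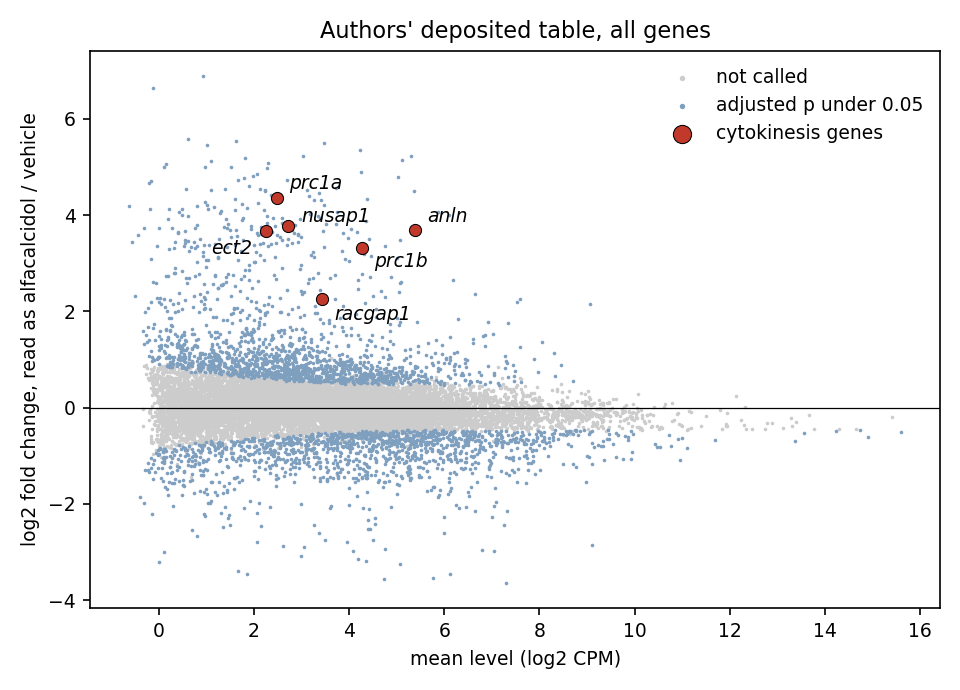
Log2 fold change against mean level (log2 CPM) for the 14962 genes of the authors' deposited table, with grey points for genes not called, blue for an adjusted p under 0.05 and red for the 6 cytokinesis genes. The red points lie at log2 fold changes between 2.25 and 4.36, above the bulk of genes at every level.

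At the ring itself, anln encodes anillin, a scaffold that ties actin, myosin and septins to the membrane and to RhoA. The authors' deposited table gave it a log2 fold change of 3.69, or 12.9-fold, with an edgeR adjusted p of 2.26e-59. Its p was the 12th lowest of all genes in the authors' deposited table. Its mean level in the authors' deposited table was 41.6 CPM, which like every CPM here is not divided by transcript length. The gene lies on chromosome 19 from 35846035 to 35863542 (GRCz10).

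The activation of RhoA at the equator needs ect2, which encodes the exchange factor that loads RhoA with GTP, and racgap1, which encodes a subunit of centralspindlin, the complex that bundles midzone microtubules and docks Ect2 there. The gene ect2 (chromosome 11, 10404945 to 10472696) was 12.7-fold higher in the authors' deposited table, a log2 fold change of 3.67 with an edgeR adjusted p of 1.93e-28 at a mean of 4.74 CPM. The gene racgap1 (chromosome 23, 33831745 to 33848713) had the smallest change of the 6, listed by the authors' deposited table at a log2 value of 2.25, with an edgeR adjusted p of 1.32e-23 and a mean of 10.8 CPM. Its partner in centralspindlin is the kinesin encoded by kif23, picked out here after its value was seen, which stood at 2.72 in the authors' deposited table, the smallest value among the 10 measured genes of its own list. Both centralspindlin genes therefore lay at the low end of their groups. Without values per library, the differences among genes of the table have no error and were not tested.

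The central spindle microtubules are held together by PRC1, a bundling protein of which zebrafish has a pair of genes. The copy prc1a (chromosome 25, 7261095 to 7284988) had the largest change of the 6, a log2 fold change of 4.36 or 20.6-fold in the authors' deposited table, with an edgeR adjusted p of 3.40e-41 and a mean of 5.57 CPM. The copy prc1b (chromosome 7, 50080521 to 50094866) was higher by 3.31 (log2) or 9.90-fold in the authors' deposited table, with an edgeR adjusted p of 6.88e-20 and a mean of 19.2 CPM. The log2 fold changes of the copies differed by 1.05 in the authors' deposited table. A 20.6-fold change at a mean of 5.57 CPM leaves a low level of prc1a in the lower group, so its size is uncertain. The sources used here do not say how reads shared by such copies were handled, so the split between them is uncertain.

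The last of the 6, nusap1, encodes a protein that binds and bundles spindle microtubules near the chromosomes. It lies on chromosome 13 from 33121271 to 33126217 and was 13.7-fold higher in the authors' deposited table, a log2 fold change of 3.77 with an edgeR adjusted p of 1.12e-36 at 6.60 CPM. Its coordinates overlap those of ndufaf1, an assembly factor gene of respiratory complex I, which was at -0.27 in the authors' deposited table without a call. No other of the 6 overlaps a gene of the table. As for prc1a, the fold sizes of ect2 and nusap1 are uncertain, at means of 4.74 and 6.60 CPM.

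Of the 12 genes that flank the 6 most closely in the authors' deposited table, 11 had no call, at log2 fold changes from -0.65 to 0.34, and 1 of 12 called is no more than the 20.1% called among all genes. The exception was oip5, the neighbour of nusap1 at a gap of 0.18 kb, which encodes a factor for centromere chromatin and was higher by 1.41 in the authors' deposited table (edgeR adjusted p 0.00138). Its mean was 0.863 CPM in the authors' deposited table, so the size is uncertain.

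Fold change and mean level together place each gene beside others of the authors' deposited table. Likeness was the Euclidean distance over log2 fold change and log2 CPM in this 1 comparison, and the nearest 2 named genes were taken for each. Similar fold changes among these neighbours thus follow from the choice. Next to anln were chaf1a, a chromatin assembly factor gene, and top2a, a topoisomerase gene, which the authors' deposited table lists at 3.49 and 4.06 on the log2 scale. These lay at distances of 0.37 and 0.61 from anln, where all other neighbours named here lay within 0.242. Next to prc1a were cdca8, which encodes a subunit of the chromosomal passenger complex, and zwilch, a kinetochore gene, at 4.32 and 4.41 in the authors' deposited table. Nearest to ect2 were mnd1 (3.62) and dlgap5 (3.66) in the authors' deposited table, a meiotic recombination gene and a spindle gene. Those of racgap1 were the origin recognition gene orc4 (2.20) and the histone methyltransferase gene whsc1 (2.35) in the authors' deposited table. For nusap1 they were mmp11b (3.80), a matrix metalloproteinase gene, and the condensin gene ncapd3 (3.69) in the authors' deposited table. Beside prc1b stood the spindle pole gene numa1 (3.19) and mstnb (3.16) in the authors' deposited table. The gene mstnb encodes a myostatin, a secreted inhibitor of muscle growth, and with mmp11b is no part of the division machinery.

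The other genes of the pathway split by role, and the lists also differed in level. Of 10 measured genes of the central spindle and of RhoA activation, the authors' deposited table called 10 higher, against 10.9% of all genes. These genes ran from 2.72 to 4.51 on the log2 scale around a median of 3.49 in the authors' deposited table. They include kif4, whose kinesin PRC1 recruits to the midzone, at 3.98, and kif20a, whose kinesin in human cells brings the Polo and Aurora kinases there, at 4.41 in the authors' deposited table. Also higher were kif14, whose kinesin in human cells binds PRC1 and citron kinase, at 4.51, cdca8 at 4.32 and the kinesin gene kif20bb at 3.54 in the authors' deposited table. Among 21 mitotic spindle genes the authors' deposited table called 20 higher and 0 lower, where 10.9% and 9.22% of all genes were. The median of the 21 was 3.43 in the authors' deposited table, and the 20 called ran widely, from 1.13 to 5.13. Examples are the spindle assembly factor gene tpx2 at 3.26, tacc3 at 3.65 and the kinesin genes kif2c and kifc1 at 3.95 and 3.81 in the authors' deposited table. By contrast ckap5, for a microtubule polymerase, was not called at -0.14 in the authors' deposited table, with a mean of 71.3 CPM.

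The structural parts of the ring and the abscission machinery were mostly not called. Cells also use these parts outside division, and the bearing of that on the calls was not tested. For 20 measured contractile ring genes the authors' deposited table held 1 call higher, 4 lower and 15 genes without a call, around a median log2 fold change of -0.17. That is 25.0% called, against 20.1% of all genes, of which 10.9% were called higher and 9.22% lower. The higher one was diaph3, for a formin that polymerises actin downstream of RhoA, at 3.06 in the authors' deposited table with an edgeR adjusted p of 1.07e-17. Its mean of 2.04 CPM was the lowest of the 20. The lower ones were actn1 at -0.94, actb2 at -0.63, myh9a at -0.61 and myl9a at -0.52 in the authors' deposited table, which encode an actin crosslinker, cytoplasmic actin, a non-muscle myosin heavy chain and a myosin light chain. The genes rhoaa, rhoab and rhoac, picked out here after their values were seen as the substrate of Ect2, were not called. They stood at -0.36, -0.47 and -0.18 in the authors' deposited table. Citron kinase was listed as a ring gene under the symbols cita and citb, which had no match, so it is not among the 20. Its gene appears as CIT, noticed after its value was seen, and was higher by 2.87 in the authors' deposited table.

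Septins polymerise into filaments that anillin anchors at the furrow. Among 11 septin genes the authors' deposited table called 0 higher and 1 lower and left 10 without a call, around a median log2 fold change of -0.24. The lower one was sept8a at -0.57 (edgeR adjusted p 0.0379), while sept2, sept9a and sept15, the 3 taken by CPM among those without a call, stood at -0.0017, -0.33 and -0.23 in the authors' deposited table. Abscission cuts the last bridge between daughter cells with the ESCRT-III membrane filaments. Of its 27 measured genes the authors' deposited table called 1 higher and 2 lower and left 24 without a call, around a median of -0.21. The higher one was cep55l at 2.73 (edgeR adjusted p 1.69e-13 in the authors' deposited table), the zebrafish gene named after CEP55, which in human cells recruits ESCRT proteins to the midbody. The mean of cep55l was 1.68 CPM in the authors' deposited table. The lower ones, chmp1b at -0.57 and vps4b at -0.53 in the authors' deposited table, encode an ESCRT-III subunit and the ATPase that takes the filaments apart. The ring, septin and abscission lists together held 58 genes with 15.5% called in the authors' deposited table, below the 20.1% of all genes. Of the 58, 2 were called higher and 7 lower there, where 10.9% and 9.22% of all genes were. Only the higher calls thus fell below their share. Median levels in the authors' deposited table were 161, 79.6 and 25.6 CPM for ring, septin and abscission genes. They were 6.4 and 6.0 CPM for the central spindle and mitotic spindle lists. The part of level in the split by role was not tested.

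**Figure D2:**
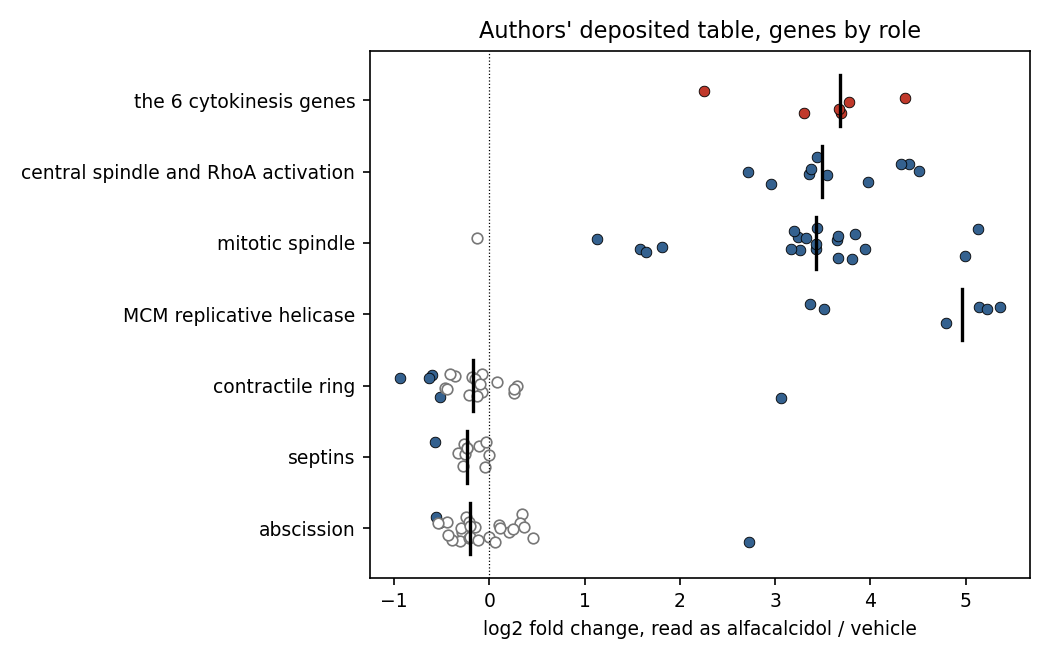
Log2 fold change of each gene in the authors' deposited table by role, with filled points for genes past an adjusted p of 0.05, open points for the others and a bar at the median of each row. The 6 cytokinesis genes, the other central spindle genes and the mitotic spindle genes centre between 3.43 and 3.68, while ring, septin and abscission genes centre between -0.24 and -0.17 with diaph3 and cep55l apart.

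Division follows DNA synthesis, and the 6 genes of the MCM helicase, which opens DNA at replication forks, give that earlier step for comparison. The authors' deposited table called all 6 higher, where 10.9% of all genes were. Their log2 fold changes ran from 3.36 to 5.36 around a median of 4.97 there, against 3.68 for the cytokinesis genes. The ranges overlapped, since mcm5 at 3.36 and mcm7 at 3.52 in the authors' deposited table each lay below 4 of the 6 cytokinesis genes. The difference between the groups was not tested.

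Markers of cardiac cell types were not called higher alongside these genes. Over all genes the authors' deposited table called 10.9% higher and 9.22% lower. Among the 10 cardiomyocyte markers the authors' deposited table called 0 higher and 1 lower, near that background. The lower one was the natriuretic peptide gene nppa, picked out after its value was seen. All 10 markers lay below 0, from -1.09 to -0.098 around a median log2 fold change of -0.34 there, against 0.0086 for all genes. All 5 neutrophil markers were called lower by the authors' deposited table, around a median of -2.07 at a summed level of 15.3 CPM. For 7 macrophage and 7 endothelial markers the authors' deposited table held 4 calls lower and 0 higher in each list, around medians of -0.56 and -0.65. It held 2 calls lower and 0 higher for 8 erythrocyte genes and 0 calls for 7 epicardial and fibroblast genes, again from the authors' deposited table. No marker of these 6 lists was called higher. The neutrophil, macrophage, endothelial and erythrocyte shares of lower calls were above the background. The part of these cell types in the rise of the cytokinesis genes was not tested.

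The count libraries resembled a library of the other label more than their own replicate. Over 19145 genes with 200 or more reads, the median chi-square per gene between libraries was 2.10 for the vehicle pair and 2.38 for the alfacalcidol pair. It was 0.821 between vehicle 2 and alfacalcidol 1 and 1.09 between vehicle 1 and alfacalcidol 2. That likeness across the labels enters the standard errors and the overlaps below, so the absence of calls is not evidence that expression was equal under both labels.

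In the count libraries, called here by their labels, the 6 cytokinesis genes were well covered, with 363 to 2340 reads per gene and library at totals of 31427486 to 39572163 reads. The gene anln stood at 54.1 and 48.8 CPM in vehicle replicates 1 and 2 and at 47.8 and 59.0 CPM in alfacalcidol replicates 1 and 2, after scaling by TMM, edgeR's correction for library composition. The groups overlapped, with the highest and the lowest library both labelled alfacalcidol. Like anln, the epidermal keratins were higher in vehicle replicate 1 and alfacalcidol replicate 2, though their highest library was a vehicle one. They summed to 26880 and 18320 CPM under vehicle and 18290 and 25910 CPM under alfacalcidol. The skeletal muscle genes split the libraries the other way, at 35340 and 38730 CPM under vehicle and 38670 and 32850 CPM under alfacalcidol. The part of either tissue in the anln values was not tested. The fitted log2 fold change of anln was 0.053 ± 0.12 (SE, n = 2 per group; edgeR quasi-likelihood adjusted p 1).

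The exchange factor gene ect2 had 19.1 and 19.9 CPM in the vehicle and 20.9 and 18.8 CPM in the alfacalcidol libraries. Its log2 fold change was 0.027 ± 0.096 (SE, n = 2 per group), and the alfacalcidol pair spanned the vehicle pair. The gene racgap1 had 20.1 and 21.6 CPM under vehicle and 22.8 and 21.4 CPM under alfacalcidol, with groups that overlapped and a log2 fold change of 0.084 ± 0.092 (SE, n = 2 per group).

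The copy prc1a was at 18.7 and 18.0 CPM in the vehicle and 20.0 and 20.5 CPM in the alfacalcidol libraries. It was the only one of the 6 whose groups did not overlap, with a log2 fold change of 0.14 ± 0.087 (SE, n = 2 per group; edgeR adjusted p 1). Both alfacalcidol libraries lay above both vehicle libraries for 10.6% of all 22428 genes tested, so 1 of 6 is close to that share. The copy prc1b was at 11.6 and 14.5 CPM under vehicle and 12.6 and 14.3 CPM under alfacalcidol, with the alfacalcidol pair inside the vehicle pair and a log2 fold change of 0.047 ± 0.14 (SE, n = 2 per group). The spindle gene nusap1 was at 27.0 and 27.4 CPM under vehicle and 25.0 and 28.5 CPM under alfacalcidol, again overlapping, at a log2 fold change of -0.023 ± 0.096 (SE, n = 2 per group).

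**Figure D3:**
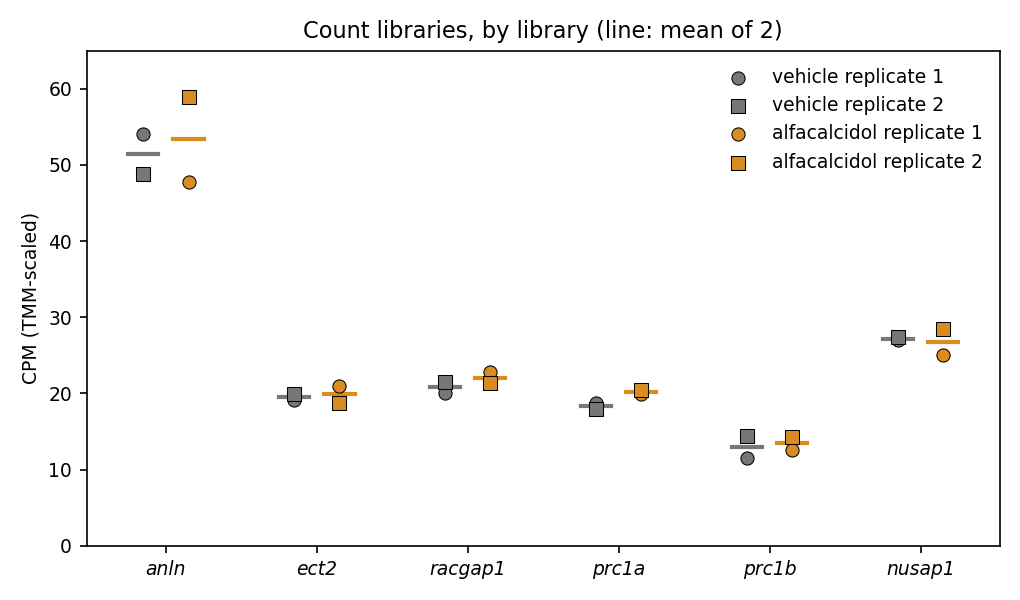
TMM-scaled CPM of the 6 cytokinesis genes in each count library, grey for vehicle and orange for alfacalcidol, circles for replicate 1 and squares for replicate 2, with a line at the mean of each pair. The pairs overlap for 5 genes and separate for prc1a, where all 4 libraries lie between 18.0 and 20.5 CPM.

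None of the 6 was called between the labels, and neither was any of the 22428 genes tested, a background of 0% (edgeR quasi-likelihood test, Benjamini-Hochberg). At an unadjusted p under 0.05 edgeR counted 128 genes, 0.571%, and none of the 6. That share is smaller than the threshold alone would give between groups without a difference. Limma-voom and DESeq2 also called 0 genes, with 121 and 19 at an unadjusted p under 0.05. A block on the crossed replicate numbers, added after the data were seen, called 0.0312% of genes and none of the 6. With that block edgeR put 788 genes at an unadjusted p under 0.05, again none of the 6. The 95% intervals of the 6 log2 fold changes reached at most 0.38, for prc1b, and at least -0.29. The interval of racgap1 ended at 0.30, against 2.25 in the authors' deposited table, and that of prc1a at 0.35, against 4.36. The intervals of these libraries thus do not reach the sizes in the table, which describes RNA with other marker levels, and the cause of the difference was not tested.

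**Figure D4:**
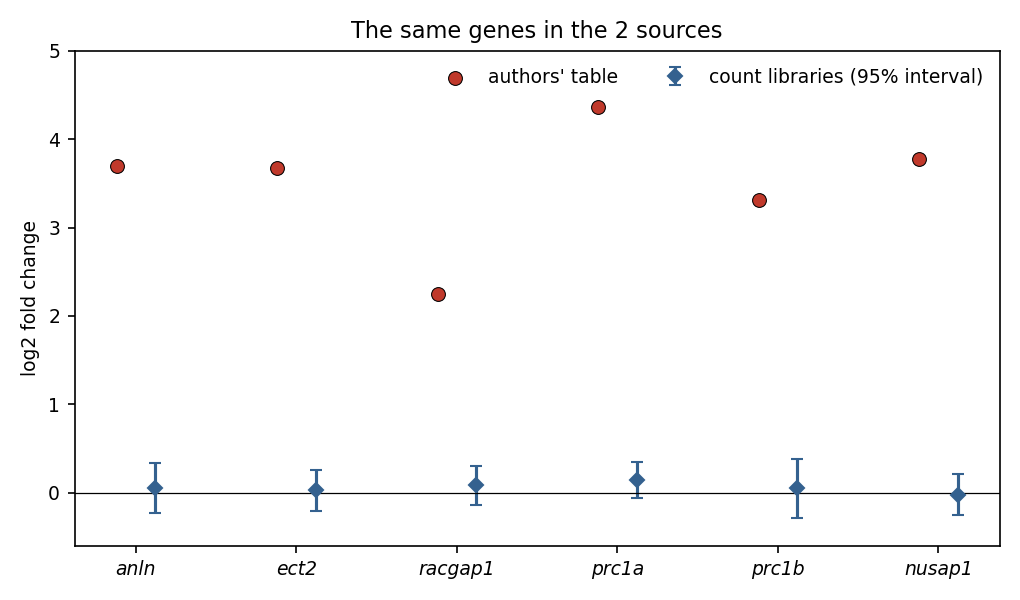
Log2 fold change of the 6 cytokinesis genes in the authors' deposited table (red points, no error deposited) and in the count libraries (blue diamonds with 95% intervals, n = 2 per group). Red points lie between 2.25 and 4.36, while every interval from the count libraries includes 0.

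The rest of the pathway had no call in the count libraries either. Of its 89 measured genes 0 were called and 0 had an unadjusted p under 0.05 in edgeR. Their median log2 fold change was -0.0014, in a range from -0.30 for the kinase gene ulk3 to 0.30 for the augmin subunit gene haus5. Both genes were picked out after their values were seen. The groups did not overlap for 24 of the 89, 14 with alfacalcidol and 10 with vehicle higher, where 10.6% and 10.5% of all genes did so. The genes diaph3 and cep55l, which stood apart from their lists in the table, had log2 fold changes of -0.037 ± 0.15 and -0.23 ± 0.17 (SE, n = 2 per group) in the count libraries.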

How the data were processed

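RNA of zebrafish labelled as heart was sequenced in 4 libraries, 2 vehicle and 2 alfacalcidol by their titles. The authors deposited raw read counts of 31462 Ensembl genes per library. Per the submitters' processing notes these came from CASAVA, TopHat2 and featureCounts on GRCz10. The sources used here give no versions, strand setting or rule for shared reads. The authors deposited log2 fold changes, log2 CPM and p-values of 14962 genes from edgeR, per the submitters' processing notes. Its libraries and filter on low levels are not stated there, and its lowest level is 0.647 CPM. A check of the adjusted p-values against the unadjusted ones gave the Benjamini-Hochberg values.

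Genes were matched to the table by symbol and joined to the counts by Ensembl ID. Of 114 symbols in the 5 pathway lists, 89 matched. After filterByExpr, 22428 genes were tested two-sided by the quasi-likelihood F-test of edgeR 4.0.16 (R 4.3.3) with TMM scaling and no term besides group, at an adjusted p of 0.05. Errors were computed from the log2 fold change and F statistic of that fit. The 95% intervals also used its degrees of freedom, which are partly estimated over all genes, so both are approximate. The steps were tested on simulated libraries drawn independently, without the likeness across labels seen here. Alternatives were other scalings and filters, DESeq2 1.42.0, limma-voom (limma 3.58.1), a replicate block, other thresholds and each library left out. No pair of libraries was identical, and the closest pairs (by median chi-square per gene) joined libraries of different labels.

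The genes and lists were chosen with earlier results of these data known. Named were the 6 genes, per list up to 5 called genes by lowest p and 3 uncalled by level, the 2 nearest genes for each of the 6, and flanking genes, a rule added after the data were seen. The genes kif23, rhoaa, rhoab, rhoac, CIT, nppa, ulk3 and haus5 fall outside these rules and were chosen after their values were seen. No sequence of these genes was used here.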

Additional observations from a re-analysis of the deposited data

How the results depend on the processing

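All 6 cytokinesis genes kept their call in the authors' deposited table at an adjusted p of 0.01, with a 2-fold minimum and over genes at 1 CPM or more, and calls among the pathway genes ranged from 32 to 39 under these settings and with symbols of 1 gene ID. The table holds no values per library, so no library could be left out of it. In the count libraries 0 of the 6 and 0 of the 89 pathway genes were called under every scaling, filter, test and left-out library run. Leaving out 1 library at a time moved the log2 fold change of anln between -0.11 and 0.20, of ect2 between -0.051 and 0.10, of prc1b between -0.10 and 0.22 and of nusap1 between -0.12 and 0.066, so none of these signs held. Those of prc1a (0.12 to 0.17) and racgap1 (0.032 to 0.14) did, which for prc1a follows from groups that did not overlap.

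With the replicate number as a block edgeR called 0 genes. Libraries of the same number deviated from their group means in opposite directions (correlation -0.47 over 22428 genes). With 2 libraries per group the deviations mirror each other, so the crossed pairs had 0.47 by construction. A block on the crossed pairing, added after the data were seen, called 7 genes, 0 of them among the 6 or the 89. The cause was not tested.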
